A study of Mus musculus with 2 samples.

Results

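The genes described here handle heme and iron: Hmox1, Blvrb, Slc48a1 and Hp for heme and hemoglobin, Slc40a1, Slc11a1 and Tfrc for the movement of iron, and Fth1, Ftl1 and Ncoa4 for its storage. They are 10 of the 31053 genes listed in the count matrices, were chosen by symbol, and all 10 had a row. They were followed in single leukocytes from Ptgs-deficient melanomas, whose tumor cells lack both cyclooxygenases. Live CD45+ cells were sorted on day 4 after injection of Braf-mutant melanoma cells into 8-week-old C57BL/6 hosts and sequenced in droplets. Hosts of the control group were untreated, while the other hosts (NK cell-depleted, below NK-depleted) were given anti-NK1.1 (clone PK136, 200 µg) and anti-asialo GM1 (30 µg) on days 0 and 2. Tumors of a group were pooled, so that each group is 1 library, and parental melanoma cells had been added to both sorted samples. The genotype label of both samples reads wild-type tumor cells, whereas the titles and the series' design name the Ptgs-deficient line, a conflict that touches both groups alike. With 1 library per group no difference had a replicate check, no test was possible and no p-value is given. All intervals are 95% intervals and cover counting error only.

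Heme oxygenase 1, the product of Hmox1, opens the heme ring and frees its iron, and Blvrb encodes biliverdin reductase B. Macrophages that take up dying red cells bring heme out of the phagosome through HRG1 (Slc48a1), store iron in ferritin shells built of heavy (Fth1) and light (Ftl1) chains, and release it through ferroportin (Slc40a1), the known cellular iron exporter of mammals. Transferrin receptor 1 (Tfrc) takes iron in, NRAMP1 (Slc11a1) pumps divalent metals out of phagosomes, NCOA4 leads ferritin to lysosomes for breakdown, and haptoglobin (Hp) binds free hemoglobin.

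Part of this gene set is tied together by iron-responsive elements, hairpins in messenger RNA that iron regulatory proteins bind when iron is scarce. Binding in the 5' UTR blocks translation, and binding in the 3' UTR of Tfrc protects the transcript from decay. A hairpin with a bulged C, 5 paired bases, the loop CAGTGN and 5 paired bases (the last loop base being A, C or T, and G-U counted as a pair) was searched on the transcript strand of the annotated UTRs (GENCODE, GRCm38, the genome that the submitters' processing notes name as mm10). It was found in the 5' UTR of 3 of the 10 genes, against 0.102% of 20544 genes with an annotated 5' UTR, and in the 3' UTR of 1 of the 10, against 0.468% of 20937. The elements are printed because protein output of these genes need not follow the transcript counts given below. The loop is in capitals.
Fth1, 5' UTR, chr19:9982732-9982760, plus strand: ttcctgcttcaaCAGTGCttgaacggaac
Ftl1, 5' UTR, chr7:45459779-45459807, minus strand: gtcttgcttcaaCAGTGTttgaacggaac
Slc40a1, 5' UTR, chr1:45925465-45925493, minus strand: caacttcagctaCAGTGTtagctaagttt
Tfrc, 3' UTR, element 1, chr16:32631219-32631247, plus strand: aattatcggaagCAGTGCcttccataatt
Tfrc, 3' UTR, element 2, chr16:32631598-32631626, plus strand: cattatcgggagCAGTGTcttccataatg
Tfrc, 3' UTR, element 3, chr16:32631663-32631691, plus strand: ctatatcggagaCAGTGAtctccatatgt
Tfrc, 3' UTR, element 4, chr16:32631710-32631738, plus strand: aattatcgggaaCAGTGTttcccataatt
A match is a description of the letters and not a proven site. The other 6 genes (Hmox1, Blvrb, Slc48a1, Hp, Slc11a1 and Ncoa4) held no match in these windows.

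The filter of 500 to 15000 UMIs (unique molecular identifiers, 1 per captured transcript molecule), 200 to 4000 genes and at most 10% mitochondrial UMIs kept 5292 control cells with 24810009 UMIs and 4506 NK-depleted cells with 23245982 UMIs. The libraries shared 5 barcodes among the kept cells. Cells were clustered without the 10 genes and without the related heme and iron lists, and clusters were named from marker genes. Macrophage-like cells numbered 1965 in the control and 1280 in the NK-depleted library, monocyte-like cells 753 and 1402, neutrophil-like cells 363 and 459, and T-like cells 288 and 221. As a check of the labels, the main NK-like cluster held 543 cells of the control and 1 of the NK-depleted library. All 25 macrophage markers were seen in macrophage-like cells and all 12 neutrophil markers in neutrophil-like cells of both libraries. This is no check of the names, because the clusters were named from these lists. All 25 macrophage markers were also seen in monocyte-like cells. Levels are given in CPM, the usual scaling of counts by a total, here the summed UMIs of a gene over all UMIs of its class.

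Hmox1 was above all a transcript of macrophage-like cells. Its level was 1839.7 CPM (95% interval 1814 to 1865) in control macrophage-like cells and 1481 CPM in NK-depleted ones, from 20080 and 12000 UMIs. Monocyte-like cells stood at 197 and 179 CPM and neutrophil-like cells at 76.6 and 88.3 CPM. T-like cells, at 25.0 and 14.4 CPM, and the control cells of the main NK-like cluster, at 28.2 CPM, were low, and free RNA in the droplets can add to such levels. Among classes of at least 50 cells, the lowest levels rested on 0 or 1 UMI and overlapped their neighbors. They were 8.85 CPM (0.224 to 49.3) in control B-like cells and, in the NK-depleted library, 3.54 CPM (0.0897 to 19.7) in migratory DC-like cells. Eosinophil-like cells of the NK-depleted library had 0 UMIs, with an interval up to 76.4 CPM. The 18 control eosinophil-like cells, too few to be ranked, had 13 Hmox1 UMIs among 17612. Macrophage markers summed to 497 and 419 CPM in T-like cells. The order macrophage-like, monocyte-like, neutrophil-like, T-like was the same in both libraries. The unnamed clusters 2 and 11 lay between macrophage-like and monocyte-like cells, while the unnamed cluster 8 was low, at 19.1 and 28.7 CPM. Cluster 2 (led by Htra3 and Spint1) had 632 and 602 CPM, and cluster 11 (led by Retnla and Il6) 335 and 270 CPM. Within macrophage-like cells the transcript was unevenly held: 622 of 1965 control cells had 5 or more Hmox1 UMIs and carried 92.4% of all, and 446 of 1280 NK-depleted cells carried 90.0%. After thinning every cell to 1000 UMIs, 42.0% of 1893 control and 42.7% of 1249 NK-depleted macrophage-like cells had an Hmox1 UMI (71.6% and 77.6% before thinning), against 2.17% and 1.42% of T-like cells. The median depth was 5121 and 6048.5 UMIs in macrophage-like cells and 2082.5 and 2327 UMIs in T-like cells.

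The other heme genes had 3 different distributions. Blvrb followed Hmox1, with 170 CPM in control and 120 CPM in NK-depleted macrophage-like cells, 47.9 and 48.2 CPM in monocyte-like cells and 16.3 and 11.4 CPM in neutrophil-like cells. Slc48a1 was less restricted. It reached 134 and 105 CPM in macrophage-like cells and 119 and 99.8 CPM in the unnamed cluster 11. Levels were 58.9 and 57.5 CPM in type 2 DC-like (dendritic) cells and 35.3 and 33.5 CPM in monocyte-like cells. Melanoma-like cells held it too, at 123 CPM (19 UMIs) in the control and 332 CPM (101 UMIs) in the NK-depleted library. The added parental cells were not told apart from other melanoma cells here. Hp belonged to neutrophil-like cells (492 and 461 CPM) and monocyte-like cells (162 and 150 CPM), and was nearly absent from macrophage-like cells (6.87 and 6.79 CPM) and T-like cells (3.12 CPM from 2 UMIs, and 0 UMIs). At 1000 UMIs per cell, 30.5% and 32.6% of neutrophil-like cells, but 0.581% and 0.320% of macrophage-like cells, had an Hp UMI. Of all Hmox1 UMIs, macrophage-like cells held 83.5% in the control and 79.6% in the NK-depleted library, while monocyte-like cells held 60.1% and 73.3% of the Hp UMIs. Hp and Hmox1 were thus read mainly from different cells.

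**Figure D1:**
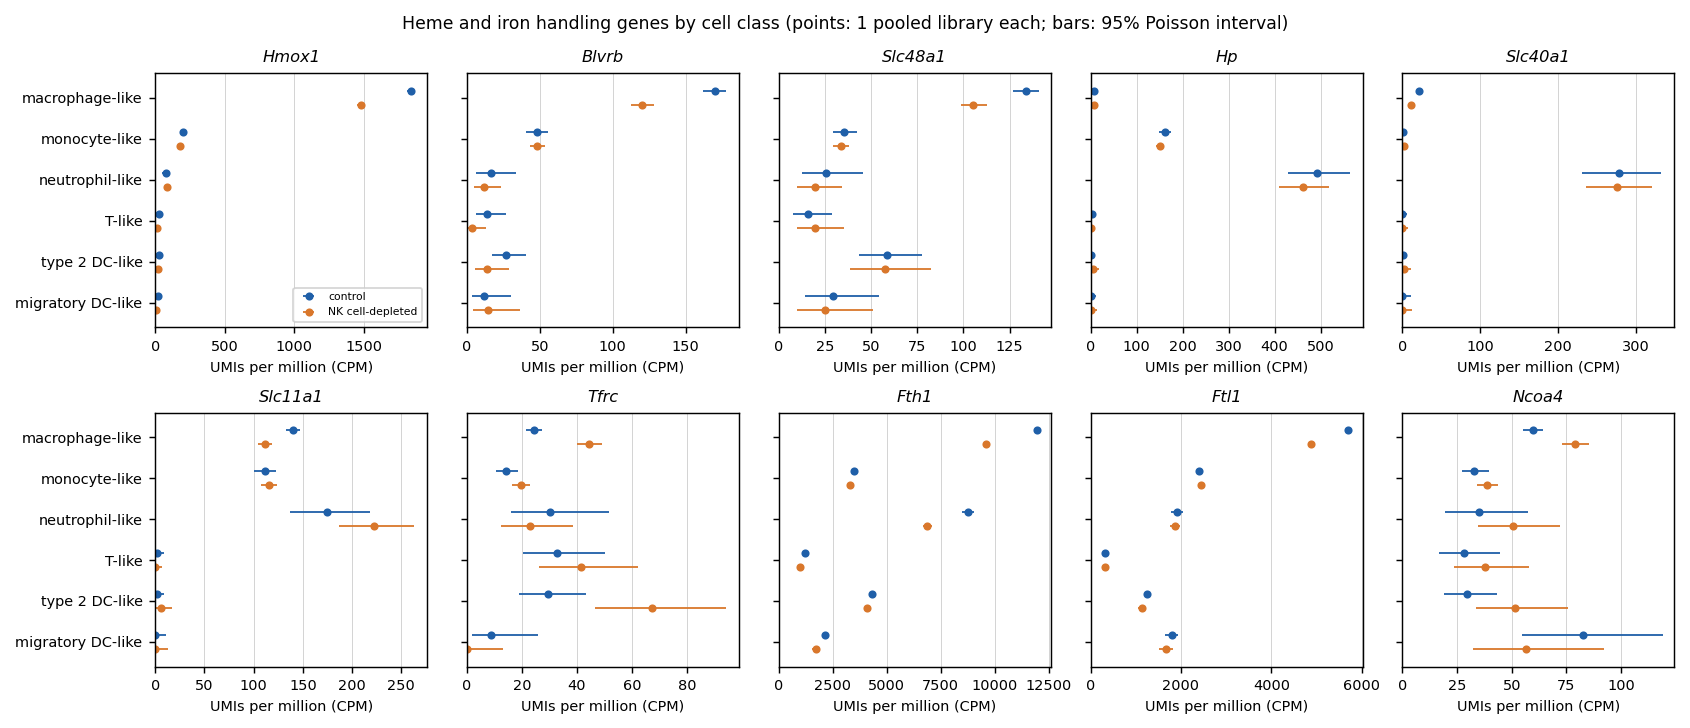
CPM of each of the 10 genes (horizontal axes, linear) in 6 cell classes, with 1 point per library (blue control, orange NK-depleted) and bars for the 95% Poisson interval. Hmox1, Blvrb, Fth1 and Ftl1 are highest in macrophage-like cells of both libraries, while Hp and Slc40a1 are highest in neutrophil-like cells, at 492 and 461 CPM and at 279 and 276 CPM.

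Among the named classes Slc40a1 was highest in neutrophil-like cells, although ferroportin is best known from macrophages. Its level there was 279 CPM (120 UMIs) in the control and 276 CPM (169 UMIs) in the NK-depleted library, against 21.5 and 11.6 CPM in macrophage-like cells. The lower end of the neutrophil-like interval was 231 CPM in the control and 236 CPM in the NK-depleted library. Monocyte-like cells had 0.881 and 1.94 CPM. T-like cells had 0 UMIs in both libraries. In neutrophil-like cells the transcript was spread over many cells: 79 of 363 and 123 of 459 had at least 1 UMI, and no more than 1 cell in either library had 5 or more. In macrophage-like cells it was held by few: 78 of 1965 and 25 of 1280 had a UMI, and 15 control and 3 NK-depleted cells with 5 or more UMIs carried 50.2% and 48.9% of all Slc40a1 UMIs. At 1000 UMIs per cell, 17.3% and 21.2% of neutrophil-like cells had a UMI, against 1.43% and 0.721% of macrophage-like cells. Macrophage markers summed to 871 and 648 CPM in neutrophil-like cells, against 22612 and 20469 CPM in macrophage-like cells. Because macrophage-like cells were many and deep, they still held 61.2% of all 384 Slc40a1 UMIs of the control library, against 31.25% in neutrophil-like cells. In the NK-depleted library they held 30.9% of 304, against 55.6% in neutrophil-like cells. Both makeup and level differed there. Neutrophil-like cells made up 6.86% of kept control and 10.2% of kept NK-depleted cells, and macrophage-like cells 37.1% and 28.4%. The level in macrophage-like cells was also lower in the NK-depleted library, as given above.

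Slc11a1 was shared by the phagocytes. Neutrophil-like cells had 174 and 222 CPM, macrophage-like cells 139.5 and 111 CPM, and monocyte-like cells 111 and 116 CPM, while T-like cells had 1 UMI in the control and 0 in the NK-depleted library. The intervals of neutrophil-like and macrophage-like cells overlapped in the control library and were separate in the NK-depleted one. Tfrc was low in every class. It was measured at 24.3 and 44.3 CPM in macrophage-like, 14.1 and 19.5 CPM in monocyte-like, 30.2 and 22.9 CPM in neutrophil-like, 32.8 and 41.5 CPM in T-like and 29.4 and 67.4 CPM in type 2 DC-like cells. The order of the classes for Tfrc differed between the libraries, with most neighbours inside each other's intervals.

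The ferritin chains were the most abundant members in every class. Fth1 reached 11970.4 CPM in control and 9596 CPM in NK-depleted macrophage-like cells, and both chains together made up 1.77% and 1.45% of all UMIs there. Neutrophil-like cells had 8738 and 6881 CPM, monocyte-like cells 3505 and 3293 CPM and T-like cells 1202 and 981 CPM. Ftl1 was measured at 5700.4 and 4877 CPM in macrophage-like, 2391 and 2442 CPM in monocyte-like, 1906 and 1866 CPM in neutrophil-like and 311 and 312 CPM in T-like cells. Both genes have near-identical copies that can split reads. The listed copy Ftl1-ps1 had 723 UMIs in control macrophage-like cells against 62220 for Ftl1. Ncoa4 was measured at 59.6 and 79.0 CPM in macrophage-like, 34.8 and 50.7 CPM in neutrophil-like, 32.9 and 38.8 CPM in monocyte-like and 28.1 and 37.9 CPM in T-like cells, and at 82.5 and 56.7 CPM in migratory DC-like cells.

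The balance of the chains differed between classes. UMIs at the 3' end do not scale with transcript length, but genes can differ in capture, so the ratio is compared between classes and not read as a number of chains. Neutrophil-like cells had 4.58 Fth1 UMIs per Ftl1 UMI (4.25 to 4.95) in the control and 3.69 (3.45 to 3.94) in the NK-depleted library. Macrophage-like cells had 2.10 and 1.97, and monocyte-like cells 1.47 and 1.35. The intervals of these 3 classes were separate in both libraries. T-like cells had 3.86 (3.30 to 4.54) and 3.14 (2.65 to 3.75), overlapping the neutrophil-like interval in both libraries. Type 2 DC-like cells had 3.42 (3.19 to 3.66) and 3.63 (3.30 to 3.99), overlapping it in the NK-depleted library only. An unnamed small cluster with neutrophil genes (46 and 34 cells, led by Gm5483, Cxcl3 and Hcar2) had 5.97 and 5.39. Macrophage markers summed to 6270 and 3003 CPM in it and neutrophil markers to 18669 and 22796 CPM, against 58960.4 and 60000.2 CPM of neutrophil markers in neutrophil-like cells. Its Fth1 level was 28795 and 32734 CPM, and both chains together made up 3.36% and 3.88% of its UMIs. It also held Slc40a1 at 141 and 338 CPM, from 8 and 16 UMIs.

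**Figure D2:**
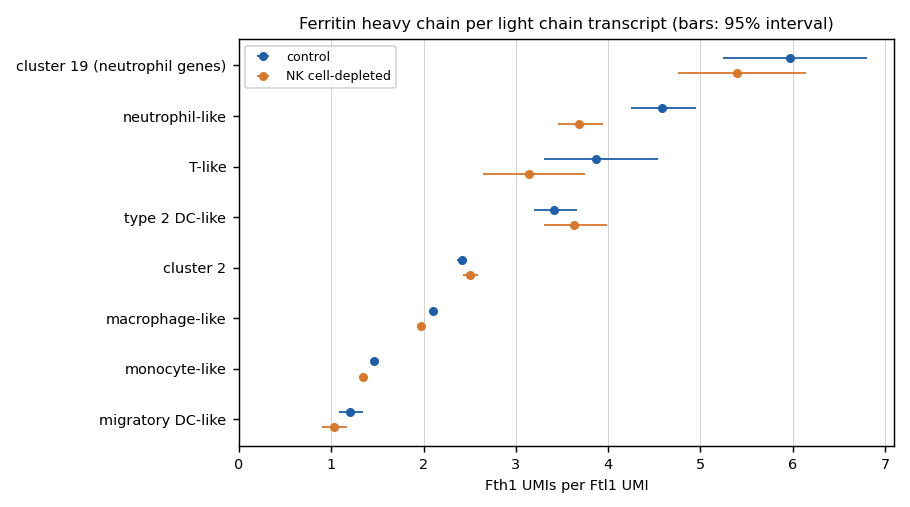
Fth1 UMIs per Ftl1 UMI (horizontal axis, linear) in 8 classes or unnamed clusters, with 1 point per library (blue control, orange NK-depleted) and the 95% interval as a bar. Neutrophil-like cells (4.58 and 3.69) lie above macrophage-like (2.10 and 1.97) and monocyte-like cells (1.47 and 1.35) in both libraries.

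In macrophage-like cells, the comparison of control with NK-depleted tumors asks what the presence of NK cells went along with. Of the 10 genes, 2 passed a 1.5-fold difference in CPM with at least 20 UMIs over both libraries. Slc40a1 was higher in the control (21.5 against 11.6 CPM, 1.86-fold, 1.45 to 2.38) and Tfrc lower (24.3 against 44.3 CPM, ratio 0.548, 0.466 to 0.644). Among all 11067 genes with 20 or more UMIs in these cells, 10.3% passed 1.5-fold in either direction. A further 7 genes differed by less than 1.5-fold but by more than counting error. The share of all genes that do so was not counted, so these 7 are not read as a result about the set. Blvrb was 1.41-fold higher in the control (1.31 to 1.53), Slc48a1 1.27-fold, Slc11a1 1.25-fold, Fth1 1.25-fold, Hmox1 1.24-fold and Ftl1 1.17-fold. Ncoa4, whose product sends ferritin to breakdown, had a ratio of 0.755 (0.676 to 0.843). Hp, with 75 and 55 UMIs, had a ratio of 1.01 (0.705 to 1.46). The median log2 ratio of the 10 genes was 0.32, beside -0.03 over all genes tested. Beside the background, 2 of 10 called genes are not read as a result about the set. Markers of other cells moved too. In control macrophage-like cells neutrophil markers summed to 227 CPM, against 172 CPM in NK-depleted ones (10 of 12 markers higher in the control). NK markers summed to 19.1 and 0.864 CPM (12 of 12), erythroid markers to 5.86 and 1.85 CPM (5 of 6, from 64 and 15 UMIs), T cell markers to 15.8 and 9.63 CPM (11 of 15) and platelet markers to 23.5 and 7.41 CPM (2 of 5). Classical monocyte markers were lower in the control, at 4341 and 4961 CPM (4 of 11 higher), as were melanoma markers, at 85.9 and 90.0 CPM (3 of 11). Their part in the ratios was not tested.

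**Figure D3:**
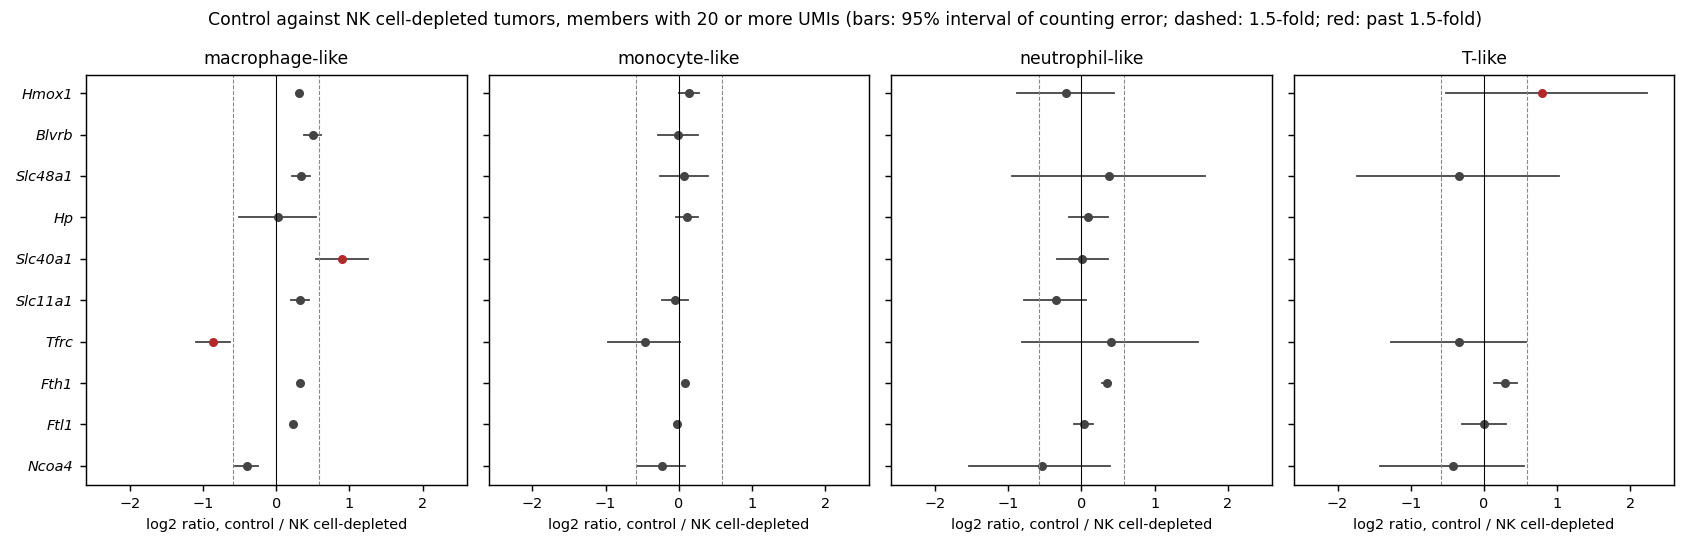
Log2 ratio of control over NK-depleted CPM (horizontal axes) for the genes with at least 20 UMIs, in 4 classes, 1 library per group. Points are ratios, bars 95% intervals of counting error, dashed lines 1.5-fold, and red marks a ratio past it: Slc40a1 (1.86) and Tfrc (0.548) in macrophage-like cells and Hmox1 in T-like cells (1.73, with an interval from 0.699 to 4.68).

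The makeup of the macrophage-like class moved with these ratios. A cluster led by Ccl8 and Lyve1 made up 15.9% of control and 31.0% of NK-depleted macrophage-like cells. It had the lowest Hmox1 and Fth1 and the highest Tfrc of the macrophage-like clusters. A cluster led by Pf4, Arg1 and Spp1 made up 44.0% and 28.75%. When each cluster was given 1 common weight, the log2 ratio of Hmox1 went from 0.31 to 0.07, that of Fth1 from 0.32 to 0.15, that of Slc48a1 from 0.34 to 0.13, that of Slc40a1 from 0.89 to 0.62 and that of Tfrc from -0.87 to -0.46, so Tfrc no longer passed 1.5-fold. Without the Ccl8 and Lyve1 cluster, Hmox1 stood at -0.02, Slc40a1 at 0.28 and Tfrc at -0.16, and none of the 10 passed 1.5-fold. Blvrb (0.51 and 0.54, from 0.50) and Slc11a1 (0.32 and 0.40, from 0.32) were about as large under both settings. Leaving out doublet calls and cells with 3 or more UMIs of markers of another lineage turned the direction of Hmox1, at -0.23 on the log2 scale, with 977 and 623 cells left.

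**Figure D4:**
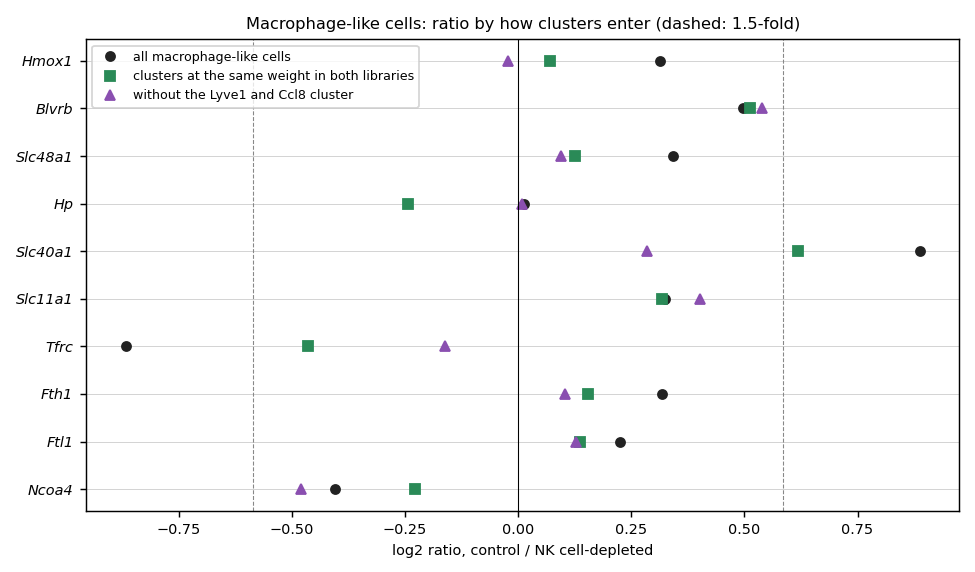
Log2 ratio of control over NK-depleted CPM (horizontal axis) of the 10 genes in macrophage-like cells, over all cells (circles), with 1 common weight per cluster (squares) and without the Ccl8 and Lyve1 cluster (triangles). Hmox1 moves from 0.31 to 0.07 and -0.02 and Tfrc from -0.87 to -0.46 and -0.16, while Blvrb stays between 0.50 and 0.54.

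Hmox1 and Fth1 differed more between macrophage-like clusters than between libraries. Hmox1 was highest in a cluster led by Gpnmb, Rhov and Mmp13 (3119 CPM in the control, 2964 CPM in the NK-depleted library) and in the Pf4 and Arg1 cluster (2457 and 2295 CPM). It was 959 and 1409.7 CPM in a cluster led by Slc7a2 and Dcstamp, and 855 and 457 CPM in the Ccl8 and Lyve1 cluster. Fth1 was highest in the Gpnmb and Rhov cluster too and lowest in the Ccl8 and Lyve1 cluster, with 20756 and 19415 CPM in the former and 5589 and 4775 CPM in the latter. Over the 7 macrophage- and monocyte-like clusters of at least 100 cells in each library, the highest level of Hmox1 was 31.5 times the lowest in the control and 24.1 times in the NK-depleted library, while for Slc11a1 the span was 2.77 and 2.41 times. Tfrc had another order. Of the macrophage-like clusters of this size, the Ccl8 and Lyve1 cluster was highest, at 53.6 and 85.3 CPM, and the Slc7a2 and Dcstamp cluster lowest, at 9.12 and 17.8 CPM.

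Within single clusters, Blvrb kept its direction. It was higher in the control in each of the 4 macrophage-like clusters of this size, with ratios of 1.36 (1.20 to 1.55) in the Pf4 and Arg1 cluster, 1.45 (1.26 to 1.67) in the Ccl8 and Lyve1 cluster, 1.45 (1.14 to 1.84) in the Gpnmb and Rhov cluster and 1.55 (1.25 to 1.93) in the Slc7a2 and Dcstamp cluster. Ftl1 was also higher in the control in each of the 4, by less (ratios of 1.12, 1.10, 1.05 and 1.05 in the same order). How many of all genes keep their direction over these 4 clusters was not counted, and the clusters share the same libraries. The agreement is thus not read as a result about Blvrb or Ftl1. Hmox1 did not share one direction. It was 1.87-fold higher in the control in the Ccl8 and Lyve1 cluster (1.74 to 2.01), lower in the Slc7a2 and Dcstamp cluster (ratio 0.680, 0.643 to 0.720), at 1.07 (1.04 to 1.11) in the Pf4 and Arg1 cluster, and at 1.05, within counting error, in the Gpnmb and Rhov cluster. In the Ccl8 and Lyve1 cluster 5 control cells held 36.5% of the Hmox1 UMIs, and without the 5 highest cells of each library the ratio was 1.29. There, 80.8% of control and 85.4% of NK-depleted cells had an Hmox1 UMI.

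The Slc40a1 ratios moved with few cells. In the Ccl8 and Lyve1 cluster, Slc40a1 had 40 UMIs in the control and 3 in the NK-depleted library (19.3 and 0.981 CPM, a ratio of 19.7 with an interval from 6.28 to 99.6), but 5 control cells held 95% of the 40. In the Gpnmb and Rhov cluster it had 55 and 15 UMIs (50.2 and 17.1 CPM, 2.93-fold, 1.63 to 5.59), seen in 23 of 321 and 7 of 232 cells. Without the 5 highest cells of each library 28 and 2 UMIs were left there, a ratio of 11.2 (2.82 to 97.0). In the Pf4 and Arg1 cluster the ratio was 0.836 (0.620 to 1.14), and without the 5 highest cells of each library it turned to 2.23 (1.31 to 4.01). Over the class, leaving out the 5 cells with most Slc40a1 UMIs in each library widened the difference, from 1.86-fold to 3.27-fold (2.31 to 4.73). In the NK-depleted library 5 cells held 57.4% of the 94 UMIs. Cells with a UMI numbered 78 in the control and 25 in the NK-depleted library, so 5 cells are a larger part of the latter. Removing 5 from each thus favors the control, also in the Gpnmb and Rhov and the Pf4 and Arg1 clusters. The widened ratios are therefore no check on the difference. Tfrc was lower in the control in 2 of the 4 macrophage-like clusters by more than counting error, with ratios of 0.629 in the Ccl8 and Lyve1 cluster and 0.512 in the Slc7a2 and Dcstamp cluster. In the latter, with 24 and 30 UMIs, the ratio without the 5 highest cells of each library was 0.837 (0.383 to 1.87). Ncoa4 was lower in the Slc7a2 and Dcstamp cluster (ratio 0.568, 0.430 to 0.748).

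**Figure D5:**
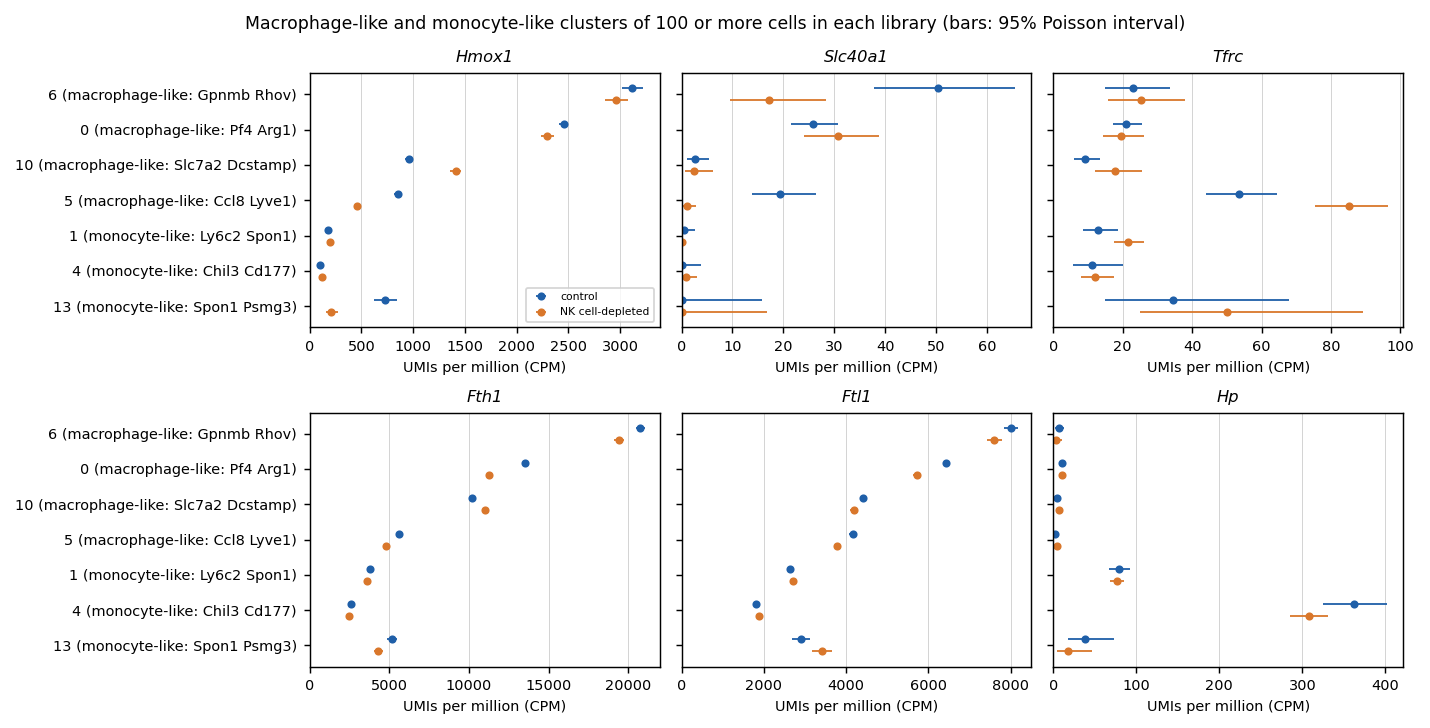
CPM (horizontal axes, linear) of 6 genes in the 7 macrophage- and monocyte-like clusters with at least 100 cells in each library, 1 point per library (blue control, orange NK-depleted), with bars for the 95% Poisson interval. Hmox1 and Fth1 are highest in cluster 6 (Gpnmb and Rhov), Tfrc in cluster 5 (Ccl8 and Lyve1, 53.6 and 85.3 CPM) and Hp in cluster 4 (Chil3 and Cd177, 362 and 308 CPM).

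In monocyte-like cells 0 of the 9 genes with 20 or more UMIs passed 1.5-fold, beside 11.7% of 9869 genes. Fth1 (3505 against 3293 CPM, 1.06-fold, 1.04 to 1.09) and Hmox1 (197 against 179 CPM, 1.11-fold, 1.01 to 1.21) were the genes whose intervals left out 1. Tfrc had 14.1 and 19.5 CPM, a ratio of 0.723 (0.510 to 1.01). In the cluster led by Ly6c2 with interferon-induced genes (Ifit2, Cxcl10), Tfrc was lower in the control (12.8 against 21.4 CPM, ratio 0.599, 0.376 to 0.925). The Hmox1 difference rested on a shallow cluster of 122 and 118 cells led by Spon1, with 727 and 209 CPM (3.48-fold, 2.50 to 4.93). Macrophage markers summed to 11752 and 12046 CPM in that cluster, against 3111 and 3242 CPM in the cluster led by Chil3 and Cd177. In it 5 control cells held 59.2% of the Hmox1 UMIs, and the ratio without the 5 highest cells of each library was 2.42. Over the whole class the log2 ratio was 0.15, against -0.16 without that cluster and -0.04 without the 5 highest cells of each library. Hp stood apart within the monocyte-like cells: it was 362 and 308 CPM in the cluster led by Chil3 and Cd177, where 62.6% and 63.3% of cells had a UMI, and 78.9 and 76.5 CPM in the Ly6c2 cluster. In the Chil3 and Cd177 cluster it was 1.18-fold higher in the control (1.03 to 1.34), while its class-wide log2 ratio of 0.11 was -0.39 when each cell was called by its own markers. Erythroid markers summed to 2.06 CPM in control and 382 CPM in NK-depleted monocyte-like cells, of which 1 cell held 2754 of 2761 UMIs.

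Neutrophil-like cells were shallow, with medians of 1159 and 1298 UMIs, and showed 0 of 9 genes past 1.5-fold, beside 21.2% of 4613 genes. Fth1 was 1.27-fold higher in the control (8738 against 6881 CPM, 1.21 to 1.33). Slc40a1 had a ratio of 1.01 (0.791 to 1.28), so that a 1.5-fold difference lay outside its counting interval, as it did for Hp (1.07, 0.889 to 1.28). Slc11a1 had a ratio of 0.783 (0.583 to 1.05). In T-like cells 1 of 6 countable genes passed, beside 23.8% of 6605 genes. It was Hmox1, with 16 and 8 UMIs, whose interval (0.699 to 4.68) holds 1. Fth1 was 1.22-fold higher in the control (1.10 to 1.37).

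Related genes of heme and iron metabolism were counted in the same way, but not with a common weight per cluster. The part of the changed makeup of the macrophage-like class in their ratios was not tested. Over all genes tested in macrophage-like cells, 6.07% were 1.5-fold higher in the control and 4.22% lower. Of the heme breakdown and transport list 0 of 9 genes with enough UMIs were 1.5-fold higher in the control and 2 lower. These were Cd163, the receptor for hemoglobin bound to haptoglobin (8.25 against 20.9 CPM, ratio 0.395, 0.303 to 0.513), and Flvcr1, a heme exporter (31.4 against 47.4 CPM, ratio 0.663). Of the iron uptake, reduction and export list 1 of 9 was lower, Cp (ceruloplasmin, a ferroxidase, 7.79 against 17.2 CPM, ratio 0.454). Of the heme synthesis list 1 of 10 was lower (Uros, ratio 0.654). Of 13 oxidative stress genes of NRF2 and BACH1, which also govern Hmox1, 1 was higher, Gclm (a subunit of the enzyme that starts glutathione synthesis, 104 against 67.6 CPM, 1.54-fold, 1.39 to 1.71). The median log2 ratios of these lists ran from -0.09 to 0.16, and 0 of 10 proliferation genes passed. In monocyte-like cells, where 5.90% of all genes tested were higher and 5.79% lower, 0 of 9 heme breakdown, 0 of 7 iron uptake and 0 of 13 oxidative stress genes passed. All 7 iron uptake genes had a log2 ratio below 0, with a median of -0.38, beside 5590 of 9869 genes and a median of -0.05 over all genes tested. Fech, which inserts iron into the heme ring, was the 1 heme synthesis gene that passed, lower in the control (12.9 against 25.0 CPM, ratio 0.516, 0.362 to 0.721). Among 10 proliferation genes, listed because dividing cells take up iron, 8 had enough UMIs there. Stmn1 (2.29-fold) and Mki67 (2.12-fold) were higher in the control and Pcna lower (68.5 against 104 CPM, ratio 0.659).

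Across the 17 clusters of at least 100 cells, both libraries pooled, the pattern most like that of Hmox1 among 9062 genes was that of Ctsl, the lysosomal protease cathepsin L (Pearson's r of log2(CPM + 10) = 0.97), followed by Tmem230 and Blvrb (both 0.94), Ftl1-ps1 and Fam214b (both 0.92). Slc40a1 was most like Osgin1 and Acta2 (both 0.94), Cxcl3 (0.93), Grina and Acod1 (both 0.92). Its level was 279 and 276 CPM in the neutrophil-like cluster. In the control, the highest of the 7 macrophage- and monocyte-like clusters had 50.2 CPM, so these r can rest largely on 1 cluster. Hp was most like Gm43660, Nfe2, Dgkg, Cd177 and Bmx (0.92 to 0.88). Tfrc had no close match, with Ubn1 first at 0.75, then Gab3, Tmem222, Polr2b and Dnajb1. Among the members, Hmox1 had r of 0.85 with Fth1, 0.86 with Ftl1 and 0.75 with Slc11a1, but -0.15 with Tfrc and -0.01 with Hp. The clusters share libraries and include cells of like origin, so these values describe the clusters and carry no test.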

How the data were processed

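For each library the authors deposited UMI counts per gene and cell, made by Cell Ranger (3.0.2 in the file headers) from 3' droplet reads, with bcl2fastq and mm10 named in the submitters' processing notes. Cells were filtered by the limits in the study's methods, whose text names another Cell Ranger release. The 2000 most variable genes, without the members and lists, gave 15 principal components and a graph of 20 neighbors, partitioned by Leiden clustering (leidenalg 0.10.2, scanpy 1.11.5) into 22 clusters. Names came from marker lists. How many markers a name required was decided with the clusters in view, and the members and lists were chosen with earlier results of these data known. Scrublet called 41 and 31 doublets, which were kept. UMIs were summed per class and library. CPM carry exact Poisson intervals, ratios exact conditional binomial intervals and shares exact binomial intervals (scipy 1.17.1). Log2 ratios add 0.5 UMI. For a count of 0 the interval still has an upper end, such as 5.76 CPM for Slc40a1 in control T-like cells. All members were named in the 4 classes compared. Of the lists, genes past 1.5-fold with 20 or more UMIs in macrophage- or monocyte-like cells were named (at most 10 per class), and for Hmox1, Slc40a1, Tfrc and Hp the 5 genes of highest r, among those at 20 CPM or more in a cluster. The ratio script was tested on simulated data. The authors' table of log-scale normalized values was not used here. The list of iron sensing genes is not reported here.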

Additional observations from a re-analysis of the deposited data

Results flagged for a closer look

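The cells above the upper limits of 15000 UMIs or 4000 genes, which the comparisons leave out, were assigned to the nearest cluster centre. Among them were 3 monocyte-like cells in each library, with 2 signals above the control level. Hmox1 was at 382 CPM in the NK-depleted cells (21 UMIs), against 0 UMIs in the control, whose interval reached 61.8 CPM. Fth1 was at 5276 CPM in the NK-depleted and 3048 CPM in the control cells. The cause was not tested. Over so few cells 1 cell can set either value. Melanoma-like cells above the limits (108 control and 225 NK-depleted cells) had Hmox1 at 153 and 208 CPM and Slc48a1 at 247 and 296 CPM. The 57 and 67 macrophage-like cells above the limits went the other way, with Hmox1 at 1173 and 554 CPM and Fth1 at 10597 and 5935 CPM.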

How the results depend on the processing

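No paired analysis was possible because each group is 1 library. In macrophage-like cells the count of the 10 genes past 1.5-fold was 2, and was 1 with a common weight per cluster and 0 without the Ccl8 and Lyve1 cluster. It was 2 or 3 under the other settings. Blvrb, Slc48a1, Slc40a1, Slc11a1, Fth1 and Ftl1 stayed above 0 and Tfrc and Ncoa4 below 0 under every setting run there, with Blvrb between 0.39 and 0.66 on the log2 scale. Hmox1 fell below 0 without the Ccl8 and Lyve1 cluster and without doublets and cells with markers of another class. In monocyte-like cells the count was 0, and was 3 at a Leiden resolution of 2 and 1 with the stricter filter, without doublets and cells with markers of another class, without the 5 cells with most UMIs of a gene, after subtraction of the T-like level, and with no minimum of 20 UMIs. In neutrophil-like cells it was 0, and was 2 at a Leiden resolution of 2 and with cells called by their own markers, and 1 with the stricter filter and without the 5 highest cells. In T-like cells it was 1, and was 0 after thinning to 2000 UMIs, without the 5 highest cells and after subtraction of the neutrophil-like level, 3 with cells called by their own markers and 4 with no minimum of 20 UMIs. Dropping the minimum or cells changes which low counts enter. Beyond that the cause was not tested. Not run, because under 50 cells were left, were thinning to 2000 UMIs in neutrophil-like cells and removal of doublets and cells with foreign markers in neutrophil-like and T-like cells. A common cluster weight has no meaning in these 2 classes, each of a single cluster. The settings that leave out single clusters, or count the unnamed clusters 2 and 11 as macrophage-like, were chosen after seeing the data. Counting error limits Slc40a1 in monocyte-like, Hp in macrophage-like and most genes in T-like cells, and with 1 library per group no setting measures the spread between tumors.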
